A study of Rattus norvegicus with 10 samples.

Results

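Genes of the brain vasculature were followed in the left hippocampus of female TgF-344AD rats. They were 34 genes of endothelial cells, tight junctions, barrier transport, pericytes and vascular smooth muscle, chosen by symbol. The file held 33 of them among its 17168 genes, and all 33 passed the filter on low counts. Slco1a4 was not analysed here. RNA was sequenced from 5 rats fed ibudilast chow and from 5 untreated rats on rodent chow, 1 library per rat by its own animal tag. All 10 rats were female and transgenic (Tg-AD), so both groups carry the transgenes and no animal without them was part of the comparison. TgF-344AD rats, a Fisher transgenic line that serves to model Alzheimer disease, carry human transgenes driven by the mouse prion promoter. Ibudilast inhibits several cyclic nucleotide phosphodiesterases. The rats on the drug received it for 6 months from an age of 5 months, and every rat was perfused with buffer and dissected at 11 months.

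The blood-brain barrier is formed by endothelial cells that are sealed to each other by tight junctions and that carry nutrients in and drugs out with dedicated transporters. Pericytes wrap the capillaries and help to keep the barrier closed, whereas contractile smooth muscle cells surround arteries and arterioles, among them those in the leptomeninges on the brain surface. In Alzheimer disease, amyloid also deposits in vessel walls, and loss of pericytes and barrier proteins has been described. Most of the 33 genes are markers of these cells in brain, but Slc2a1 is also made by astrocytes, and Tjp1 and Tfrc by many brain cells.

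Many endothelial and barrier genes were lower with ibudilast, and no contractile smooth muscle gene was. Of the 33 genes 14 fell and none rose (edgeR quasi-likelihood test, p adjusted over 11682 genes by Benjamini-Hochberg, threshold 0.05). That is 42.4% of the members called lower, where 18.5% of all tested genes were called lower and 38.5% were called in either direction. The median log2 fold change (ibudilast over untreated) was -0.34 over the members and 0.0071 over all tested genes. At an unadjusted p under 0.05 there were 17 members, of which 1, Myh11, was higher with ibudilast, and DESeq2 called that 1 gene higher. The 14 genes were 6 of 9 endothelial adhesion and surface genes, 1 of 5 growth factor receptors, 1 of 2 transcription factors, 2 of 3 tight junction genes, 3 of 5 transporters and 1 of 6 pericyte genes. None of the 3 contractile genes passed. The groups did not overlap, with every ibudilast library below every untreated one, for Pecam1, Ramp2, Eng, Sox18, Abcg2 and Mfsd2a. These 6 are 18.2% of the members, against 11.7% of all tested genes, and 24.3% of all tested genes had groups that did not overlap in either direction. In tissue RNA, fewer cells of a type and less RNA per cell cannot be told apart.

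**Figure D1:**
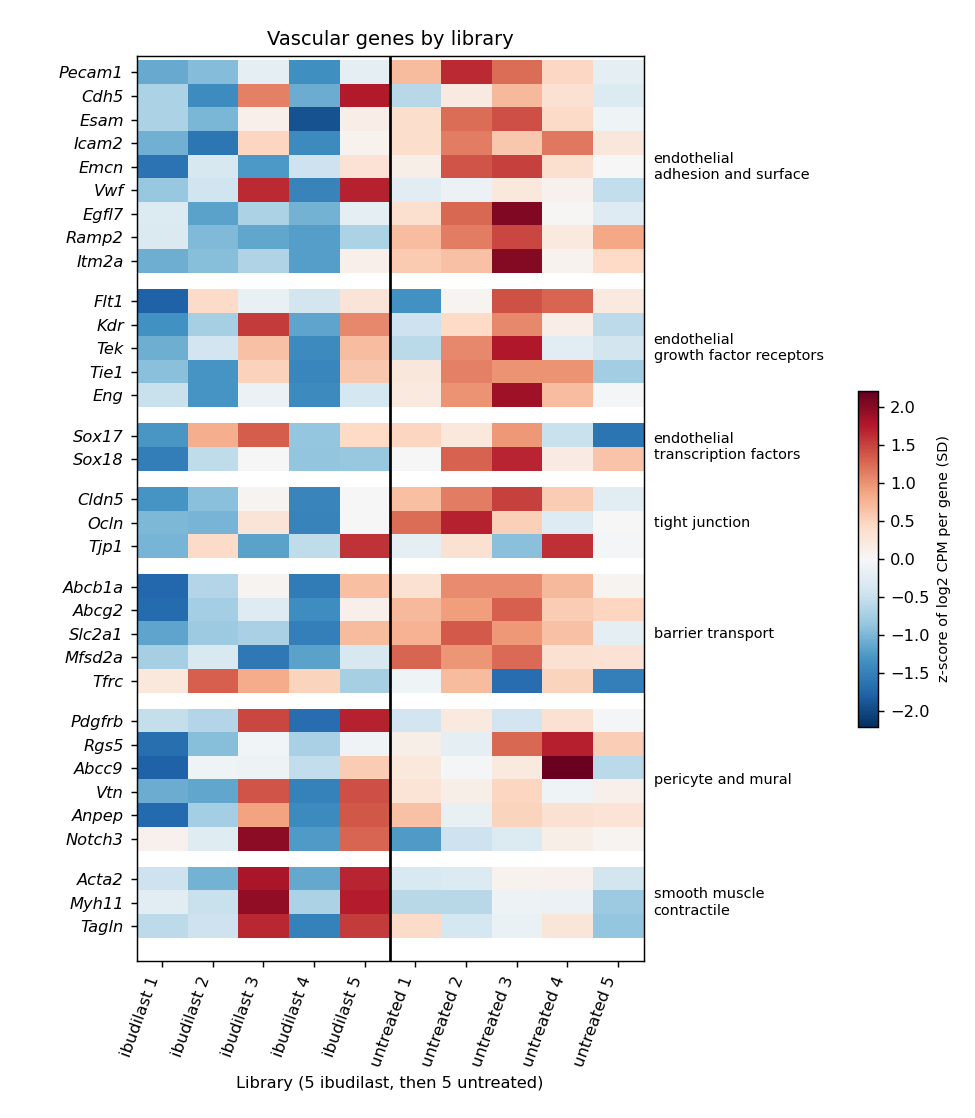
Heat map of the 33 vascular genes (rows, grouped by role) in the 5 ibudilast libraries and then the 5 untreated libraries (columns), coloured by the z-score of log2 CPM of each gene over the 10 libraries, in SD. Ibudilast 1, 2 and 4 are blue for most genes, while ibudilast 3 and ibudilast 5 are red for Vwf, Cdh5, Vtn, Pdgfrb, Notch3 and the 3 contractile genes.

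The libraries held 7553804 to 10121571 estimated counts in the ibudilast group and 6960066 to 8204390 in the untreated group. Ibudilast 3 and ibudilast 5 stood apart by meningeal fibroblast markers, which summed to 1584 and 1838 CPM there, 172 to 288 CPM in the other 3 ibudilast libraries and 261 to 409 CPM in the untreated ones. CPM are counts scaled to a common library size with TMM factors. Of the 17 measured meningeal markers 8 rose, 0 fell and none was at 0 in all libraries. The highest of them in ibudilast 3 and ibudilast 5 was Igf2, at 441 and 541 CPM. The collagen gene Col1a1 stood at 7.95, 3.14, 136, 4.93 and 136 CPM in ibudilast 1 to 5, against 6.48, 7.95, 7.38, 5.90 and 6.76 CPM in untreated 1 to 5. Ibudilast 3 also had cerebellar granule cell markers, with a sum of 4295 CPM against at most 179 CPM elsewhere and Fat2 the highest at 1196 CPM, and 3 of the 6 tested rose. Untreated 1 had choroid plexus markers, Ttr the highest at 2491 CPM, with a sum of 2611 CPM against at most 139 CPM elsewhere, and of 5 tested 1 fell and 1 rose. Of 11 neocortical neuron markers 6 rose and 1 fell, and their sums were 431 to 955 CPM in ibudilast and 509 to 809 CPM in untreated libraries. Cux2, a gene of upper cortical layers, ran from 83.5 to 158 CPM in ibudilast and 20.2 to 35.2 CPM in untreated libraries. Of 11 tested hippocampal neuron markers, out of 15 listed, 3 fell and 1, Satb1, rose. Their sums were 949.9 to 1252 CPM in ibudilast and 599.6 to 1670 CPM in untreated libraries. Single genes carried much of these sums. Calb1 made 476 of 1039 CPM in ibudilast 3, the library with cerebellar markers, and Mpped1 and Satb1 made 362 and 194 of 980 CPM in ibudilast 4. The sums thus do not measure the share of hippocampal tissue. The 3 that fell were Fibcd1, C1ql2 and Zbtb20. Fibcd1 ran from 16.2 to 135 CPM in ibudilast and 93.5 to 380.5 CPM in untreated libraries. C1ql2 ran from 5.63 to 72.7 CPM in ibudilast and 42.1 to 149 CPM in untreated libraries. Markers of the labelled tissue were thus detected in both groups, but whether its share or subfields were equal was not tested. Tdo2, Lct and Spink8 of that list stayed under 0.6 CPM in every library. Blood cell markers were low, at 7.04 to 26.3 CPM in ibudilast and 8.55 to 39.7 CPM in untreated libraries, and none of 3 tested passed (0 at an unadjusted p under 0.05). The sums of astrocyte markers overlapped, at 1893 to 2272 CPM with ibudilast and 1894 to 2692 CPM without, and 1 of 7 fell. Microglia markers summed to 295 to 524 CPM in ibudilast and 588 to 930 CPM in untreated libraries, and 9 of 10 fell. The part of these markers in the vascular results was not tested, apart from the fits without the libraries that stood apart and with a marker score.

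Among surface genes, Ramp2 changed most. It encodes a partner of the calcitonin receptor-like receptor that turns it into a receptor for adrenomedullin, a peptide that vessels need. Ramp2 had 27.0, 19.9, 18.4, 17.7 and 22.6 CPM in ibudilast 1 to 5, against 42.9, 52.5, 61.7, 34.6 and 46.2 CPM in untreated 1 to 5. The highest ibudilast library lay below the lowest untreated library, and the log2 difference was -1.17 ± 0.17 (SE, n = 5 each; edgeR adjusted p = 0.00105). Pecam1, an adhesion molecule at the contacts between endothelial cells, had 14.7, 15.5, 19.8, 13.6 and 19.7 CPM in ibudilast 1 to 5, against 26.5, 36.1, 31.6, 24.6 and 19.9 CPM in untreated 1 to 5. The groups of Pecam1 only just did not overlap, since ibudilast 3, ibudilast 5 and untreated 5 were almost level. The means were 16.7 ± 2.91 CPM in ibudilast and 27.7 ± 6.29 CPM in untreated libraries (SD, n = 5 each), and the change was -0.73 ± 0.17 on the log2 scale (SE; edgeR adjusted p = 0.00801). Itm2a, a membrane protein gene enriched in brain endothelium, had 39.0, 40.6, 44.1, 37.4 and 55.7 CPM in ibudilast 1 to 5, against 64.2, 65.5, 99.1, 55.2 and 61.4 CPM in untreated 1 to 5. Ibudilast 5 lay just above untreated 4, and the change was -0.67 ± 0.17 on the log2 scale (SE; edgeR adjusted p = 0.00989).

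Further surface genes fell with overlapping groups. Egfl7, which encodes a secreted factor of the endothelial matrix, had 13.8, 10.6, 12.3, 11.0 and 14.3 CPM in ibudilast 1 to 5, against 16.9, 22.3, 28.2, 15.3 and 13.9 CPM in untreated 1 to 5. Ibudilast 5 lay just above untreated 5, and the other 4 ibudilast libraries lay below every untreated one. The log2 fold change was -0.64 ± 0.20 (SE; edgeR adjusted p = 0.0251). Esam, a junctional adhesion molecule gene, had 16.3, 14.7, 21.1, 10.9 and 21.3 CPM in ibudilast 1 to 5, against 23.1, 30.2, 32.1, 23.4 and 19.7 CPM in untreated 1 to 5. Ibudilast 3 and ibudilast 5 exceeded untreated 5 alone. It had a log2 difference of -0.61 ± 0.20 (SE; edgeR adjusted p = 0.0337). Emcn, which encodes the sialomucin endomucin, had 6.25, 9.55, 7.10, 9.27 and 11.9 CPM in ibudilast 1 to 5, against 11.2, 16.9, 17.5, 12.1 and 10.8 CPM in untreated 1 to 5. Ibudilast 5 exceeded untreated 1 and untreated 5, and the other ibudilast libraries lay below all untreated ones. The log2 fold change of Emcn was -0.63 ± 0.21 (SE; edgeR adjusted p = 0.036). Icam2, a ligand for leukocyte integrins that endothelium makes at rest, averaged 3.87 ± 1.08 CPM in ibudilast and 5.68 ± 0.685 CPM in untreated libraries (SD, n = 5 each). It missed the threshold with all libraries (log2 fold change -0.55, edgeR adjusted p = 0.0574) and passed without ibudilast 3 (-0.67, edgeR adjusted p = 0.0243).

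For Cdh5 and Vwf, ibudilast 3 and ibudilast 5 exceeded every untreated library. For Pecam1, Itm2a, Esam and Icam2 the same pair was highest within the ibudilast group only. Cdh5, which encodes the adherens junction cadherin of endothelium, had 8.99, 6.91, 17.8, 7.74 and 22.6 CPM in ibudilast 1 to 5, against 9.28, 12.6, 15.3, 13.3 and 10.5 CPM in untreated 1 to 5. Its 2 highest values were those of ibudilast 5 and ibudilast 3, and the other 3 ibudilast values lay below every untreated one. Vwf, which encodes a clotting protein that larger vessels make more of than capillaries, had 47.8, 56.9, 147, 35.7 and 149.9 CPM in ibudilast 1 to 5, against 62.2, 65.7, 77.7, 72.7 and 54.6 CPM in untreated 1 to 5. Here too ibudilast 3 and ibudilast 5 exceeded all others, and neither gene passed (edgeR adjusted p = 0.869 for Cdh5 and 0.42 for Vwf).

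Of the growth factor receptors, the endoglin gene Eng fell. Endoglin is a co-receptor of endothelium for the TGF-beta and BMP family. Eng had 42.6, 31.9, 48.3, 30.8 and 44.1 CPM in ibudilast 1 to 5, against 54.5, 71.6, 97.5, 64.3 and 49.9 CPM in untreated 1 to 5. All ibudilast values were below all untreated values, with untreated 5 close to ibudilast 3, and the log2 fold change was -0.77 ± 0.19 (SE, n = 5 each; edgeR adjusted p = 0.00998). The VEGF receptor genes did not pass. Flt1 had 33.7, 49.9, 45.0, 43.2 and 48.7 CPM in ibudilast 1 to 5, against 36.5, 46.9, 59.5, 58.2 and 48.1 CPM in untreated 1 to 5, a range that overlapped throughout (log2 fold change -0.18 ± 0.15, SE; edgeR adjusted p = 0.365). Kdr, the main signalling receptor for VEGF, averaged 15.3 ± 7.38 CPM in ibudilast and 15.7 ± 3.79 CPM in untreated libraries (SD, n = 5 each) and had a log2 difference of -0.029 ± 0.30 (SE; edgeR adjusted p = 0.948). Of the angiopoietin system, the receptor gene Tek averaged 25.4 ± 4.33 CPM in ibudilast and 28.5 ± 5.49 CPM in untreated libraries (SD, n = 5 each). Its relative Tie1 had 19.9, 18.2, 28.3, 17.6 and 28.8 CPM in ibudilast 1 to 5, against 26.5, 32.7, 31.7, 31.8 and 20.7 CPM in untreated 1 to 5. The groups overlapped for both, and neither passed (log2 fold changes -0.17 ± 0.16 for Tek and -0.34 ± 0.18 for Tie1, SE; edgeR adjusted p = 0.419 and 0.152).

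Of the 2 SoxF transcription factor genes, which act in endothelial specification, Sox18 fell. Sox18 had 6.38, 9.55, 12.1, 8.45 and 8.53 CPM in ibudilast 1 to 5, against 12.1, 20.4, 23.9, 13.0 and 15.6 CPM in untreated 1 to 5, and the log2 fold change was -0.92 ± 0.22 (SE; edgeR adjusted p = 0.00872). The highest ibudilast value, in ibudilast 3, was nearly equal to the lowest untreated value, in untreated 1. Sox17 had 4.95, 8.29, 9.46, 5.51 and 7.58 CPM in ibudilast 1 to 5, against 7.66, 7.22, 8.61, 6.04 and 4.55 CPM in untreated 1 to 5. The groups overlapped throughout, and Sox17 did not pass (log2 fold change 0.073 ± 0.23, SE; edgeR adjusted p = 0.82). Whether the changes of the 2 genes differ was not tested.

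**Figure D2:**
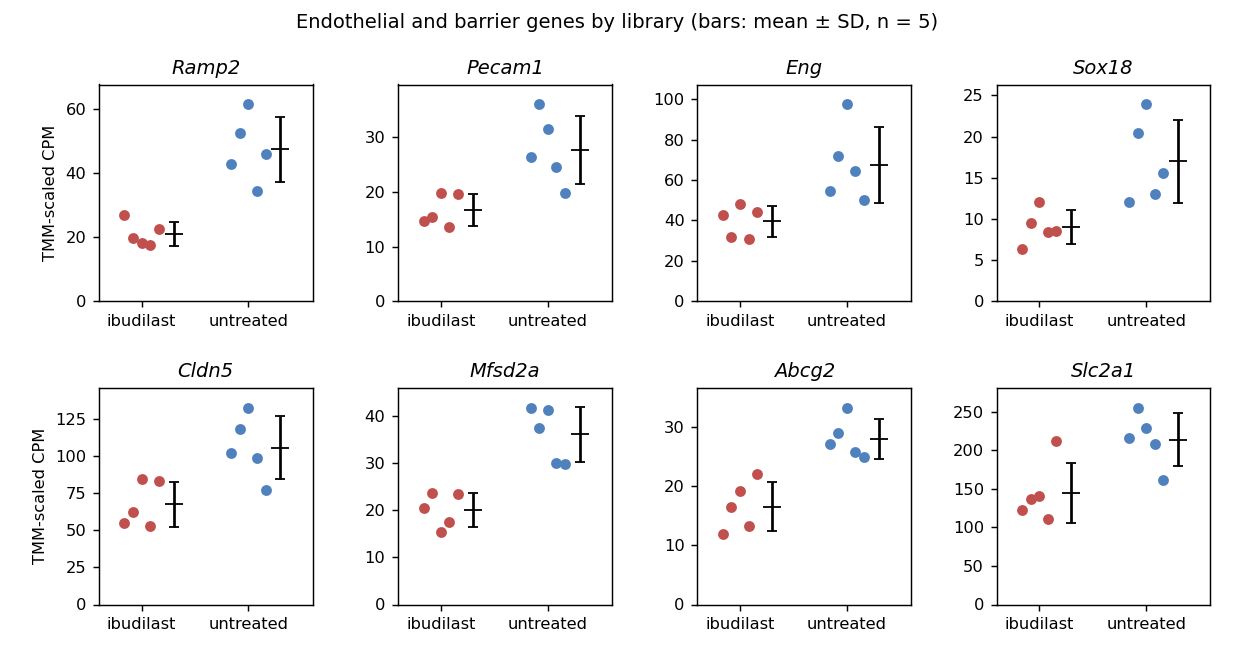
TMM-scaled CPM of Ramp2, Pecam1, Eng, Sox18, Cldn5, Mfsd2a, Abcg2 and Slc2a1 in each ibudilast library (red, left) and untreated library (blue, right), with mean ± SD (n = 5 each) as black bars. The groups do not overlap for Ramp2, Pecam1, Eng, Sox18, Mfsd2a and Abcg2, and overlap for Cldn5 and Slc2a1.

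The promoters of 3 genes with differing results are shown: Cldn5, a tight junction gene that fell, Eng, the 1 of 5 receptor genes that fell, and Acta2, a contractile gene that did not pass. The sequences are from RefSeq (GRCr8), 250 bases before to 50 after the annotated start, on the gene's strand. The counts were made on rn6, so these windows describe the genes and not the mapped reads. Capitals mark a GC box (GGGCGG on either strand) in Cldn5 and GGAAGT on either strand, a form of the ETS factor site, in Eng. Other GGAA stretches were not marked. In Acta2 capitals mark CArG boxes, the sites of serum response factor, with at most 1 G or C in the A/T core.
Cldn5, chr11:95718549-95718848, minus strand: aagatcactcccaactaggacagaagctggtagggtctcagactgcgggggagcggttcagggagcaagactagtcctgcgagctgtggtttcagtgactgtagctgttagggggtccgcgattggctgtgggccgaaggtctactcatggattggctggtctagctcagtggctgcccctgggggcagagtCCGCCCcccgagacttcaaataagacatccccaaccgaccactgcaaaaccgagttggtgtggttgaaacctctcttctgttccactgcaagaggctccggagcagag
Eng, chr3:36332029-36332328, plus strand: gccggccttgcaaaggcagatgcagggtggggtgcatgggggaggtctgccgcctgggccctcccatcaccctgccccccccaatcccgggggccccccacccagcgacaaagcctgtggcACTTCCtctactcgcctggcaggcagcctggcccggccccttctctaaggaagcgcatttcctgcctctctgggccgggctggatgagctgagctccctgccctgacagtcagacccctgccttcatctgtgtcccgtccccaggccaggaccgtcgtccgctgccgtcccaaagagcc
Acta2, chr1:241172454-241172753, minus strand: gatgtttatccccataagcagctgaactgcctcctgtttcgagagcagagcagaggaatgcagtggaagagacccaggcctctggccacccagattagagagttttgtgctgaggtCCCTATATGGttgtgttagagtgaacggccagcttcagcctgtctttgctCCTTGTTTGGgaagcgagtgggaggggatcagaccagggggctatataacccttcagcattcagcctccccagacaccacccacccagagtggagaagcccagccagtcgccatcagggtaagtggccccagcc
The GC box of Cldn5 began 58 bases before the start and the GGAAGT match of Eng 129 bases before it. The CArG boxes of Acta2 began 134 and 84 bases before the start, and each had 1 base off A or T in its core. RefSeq windows were matched for 20 of the 33 genes, and were not matched for Cdh5, Esam, Icam2, Mfsd2a, Myh11, Pdgfrb, Pecam1, Ramp2, Sox17, Sox18, Tagln, Tek and Vwf. GGAAGT was in 8 of these 20, among them 4 of the 9 matched genes that fell and 4 of the 11 that did not pass, and in 22.6% of all 33469 promoters of that length. GGGCGG was in 14 of 20, namely 6 of the 9 and 8 of the 11, and in 33.1% of all promoters. The CArG box was in 4 of 20 (Acta2, Kdr, Ocln and Tie1) and in 9.42% of all promoters. TATAAA on either strand was in Flt1 and Slc2a1 and in 14.2% of all promoters. The 4 motifs were searched on both strands, and a match is a match of letters only.

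Tight junction genes fell in 2 of 3 cases. Cldn5, the main claudin of the blood-brain barrier, had 55.1, 62.0, 84.4, 52.5 and 82.9 CPM in ibudilast 1 to 5, against 102, 118, 132, 98.4 and 76.8 CPM in untreated 1 to 5. Ibudilast 3 and ibudilast 5 were the highest of their group and exceeded untreated 5. The log2 fold change was -0.65 ± 0.18 (SE; edgeR adjusted p = 0.0147). Ocln, which encodes the junction protein occludin, had 10.8, 10.7, 17.3, 9.03 and 15.6 CPM in ibudilast 1 to 5, against 24.6, 29.1, 19.0, 14.1 and 15.6 CPM in untreated 1 to 5. Ibudilast 3 exceeded untreated 4 and untreated 5, ibudilast 5 exceeded untreated 4 and was almost level with untreated 5, the other 3 lay below all untreated libraries, and the edgeR adjusted p was 0.0426 at a log2 difference of -0.69 ± 0.24 (SE). Tjp1, the scaffold that ties these proteins to actin, averaged 155 ± 20.3 CPM in ibudilast and 160.1 ± 16.7 CPM in untreated libraries and did not pass (SD, n = 5 each; edgeR adjusted p = 0.771).

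Of the barrier transporters 3 fell. Mfsd2a, which carries lysophospholipids with docosahexaenoic acid into the brain and restrains transcytosis in its endothelium, had 20.6, 23.6, 15.3, 17.6 and 23.5 CPM in ibudilast 1 to 5, against 41.8, 37.6, 41.3, 30.1 and 29.8 CPM in untreated 1 to 5. No library of the groups overlapped, and the log2 fold change was -0.84 ± 0.15 (SE, n = 5 each; edgeR adjusted p = 0.00248). The drug efflux pump gene Abcg2 had 11.9, 16.5, 19.3, 13.3 and 22.1 CPM in ibudilast 1 to 5, against 27.1, 29.1, 33.4, 25.8 and 25.0 CPM in untreated 1 to 5. These groups also did not overlap (log2 fold change -0.76 ± 0.17, SE; edgeR adjusted p = 0.00618). The glucose transporter gene Slc2a1 had 123, 136, 140.2, 111 and 212 CPM in ibudilast 1 to 5, against 215, 255, 228, 208 and 162 CPM in untreated 1 to 5. Ibudilast 5 lay within the untreated range and the other 4 ibudilast libraries below it, and the log2 difference was -0.57 ± 0.18 (SE; edgeR adjusted p = 0.027).

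Abcb1a, a gene of the efflux pump P-glycoprotein, just missed the threshold. It had 34.4, 48.9, 61.5, 36.5 and 74.8 CPM in ibudilast 1 to 5, against 67.3, 84.3, 84.5, 76.1 and 61.5 CPM in untreated 1 to 5, with ibudilast 5 inside the untreated range, ibudilast 3 level with untreated 5 and the other 3 below (log2 fold change -0.54, edgeR adjusted p = 0.0558). Abcb1a passed without ibudilast 3 (-0.60) or ibudilast 5 (-0.72). Its close relative Abcb1b, among the further transporters below, fell without overlap (log2 fold change -2.07, edgeR adjusted p = 0.0152). Abcb1b averaged 1.94 ± 2.05 CPM in ibudilast and 8.15 ± 1.42 CPM in untreated libraries (SD, n = 5 each). Tfrc, the transferrin receptor that brings in iron, averaged 93.0 ± 8.17 CPM in ibudilast and 84.5 ± 10.8 CPM in untreated libraries (SD, n = 5 each) and did not pass (log2 fold change 0.14, edgeR adjusted p = 0.311).

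**Figure D3:**
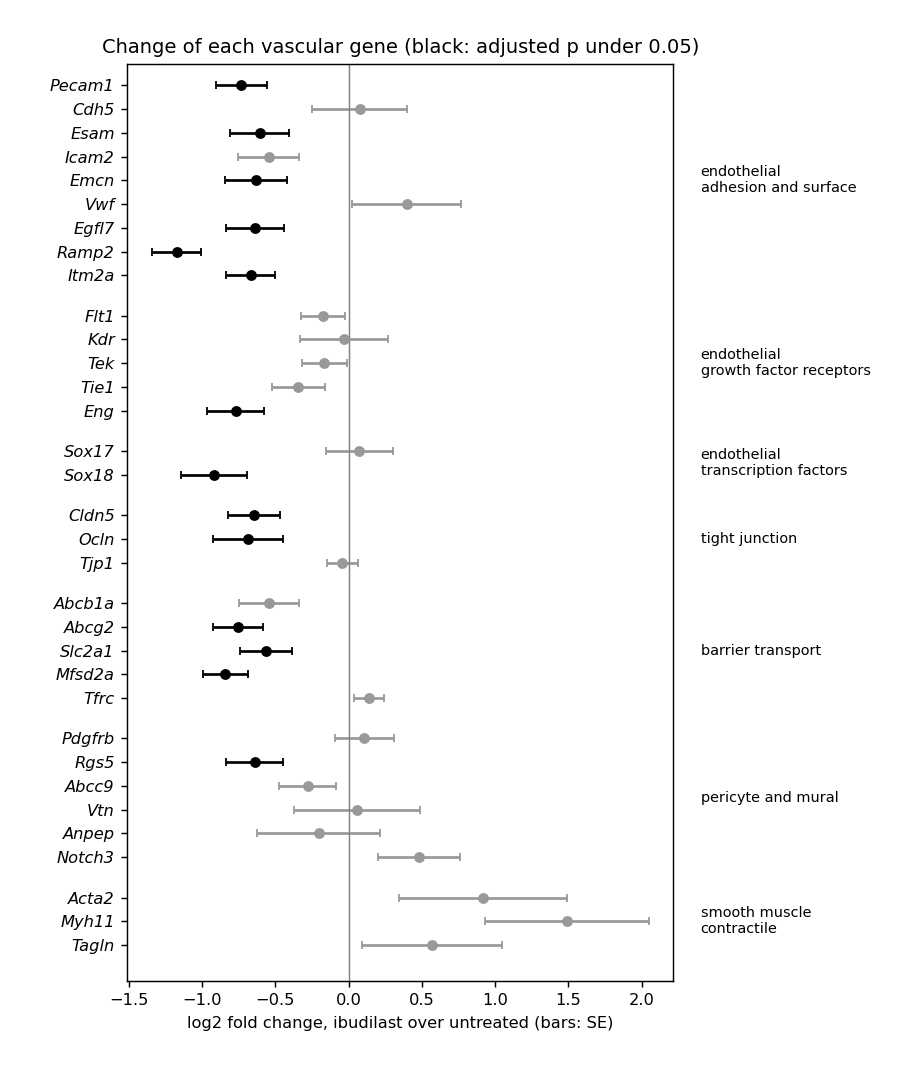
Log2 fold change (ibudilast over untreated, horizontal axis) of each of the 33 genes with its standard error, grouped by role from top to bottom. Black marks the 14 genes with an edgeR adjusted p under 0.05, all of them on the lower side, and the contractile genes have the widest errors.

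In pericyte genes 1 of 6 passed. Rgs5, a regulator of G protein signalling that is abundant in pericytes, had 12.4, 15.6, 20.6, 16.8 and 20.5 CPM in ibudilast 1 to 5, against 21.9, 19.6, 31.4, 36.1 and 25.0 CPM in untreated 1 to 5. Ibudilast 3 and ibudilast 5 were just above untreated 2, the lowest of its group, and the log2 fold change was -0.64 ± 0.19 (SE, n = 5 each; edgeR adjusted p = 0.0241). Pdgfrb, the receptor for the endothelial growth factor that recruits pericytes, had 37.4, 36.4, 59.5, 28.6 and 62.7 CPM in ibudilast 1 to 5, against 38.3, 44.4, 38.4, 45.8 and 42.1 CPM in untreated 1 to 5. Its values in ibudilast 3 and ibudilast 5 were the highest of the 10, the other ibudilast values were below all untreated ones, and it did not pass (log2 fold change 0.11 ± 0.20, SE; edgeR adjusted p = 0.701). Abcc9, a subunit of the potassium channel of pericytes, averaged 13.8 ± 2.67 CPM in ibudilast and 16.8 ± 4.62 CPM in untreated libraries (SD, n = 5 each; edgeR adjusted p = 0.275).

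The remaining mural genes had the same pair of high libraries. Vtn, which encodes vitronectin and is made by brain pericytes, had 16.9, 16.5, 63.1, 13.7 and 63.7 CPM in ibudilast 1 to 5, against 35.5, 32.3, 39.0, 28.9 and 32.3 CPM in untreated 1 to 5. In ibudilast 3 and ibudilast 5 Vtn was above, and in ibudilast 1, 2 and 4 below, every untreated library, and the log2 fold change of all libraries was 0.056 ± 0.43 (SE; edgeR adjusted p = 0.929). Anpep, an aminopeptidase gene of pericytes and also of perivascular fibroblasts, had 1.95, 3.39, 7.996, 2.35 and 10.2 CPM in ibudilast 1 to 5, against 7.07, 4.65, 6.56, 6.04 and 5.93 CPM in untreated 1 to 5, with the same arrangement (log2 fold change -0.20, edgeR adjusted p = 0.726). Notch3, the Notch receptor of smooth muscle and pericytes, had 27.4, 24.0, 53.7, 16.8 and 42.1 CPM in ibudilast 1 to 5, against 16.8, 22.4, 23.8, 27.6 and 27.0 CPM in untreated 1 to 5. Here too the highest 2 were ibudilast 3 and ibudilast 5, and the log2 fold change was 0.48 ± 0.28 (SE; edgeR adjusted p = 0.194).

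The 3 contractile genes had positive fold changes with wide errors and did not pass. Acta2, the actin of smooth muscle, had 12.2, 8.04, 60.0, 7.51 and 55.2 CPM in ibudilast 1 to 5, against 13.4, 13.7, 18.0, 18.3 and 12.7 CPM in untreated 1 to 5. Myh11, the smooth muscle myosin heavy chain, had 24.0, 19.7, 124, 16.8 and 105 CPM in ibudilast 1 to 5, against 17.8, 18.0, 26.4, 25.8 and 15.4 CPM in untreated 1 to 5. Tagln, an actin-binding protein gene of smooth muscle, had 17.1, 18.3, 64.2, 9.85 and 59.6 CPM in ibudilast 1 to 5, against 30.9, 19.1, 22.0, 28.0 and 14.5 CPM in untreated 1 to 5. Each was highest in ibudilast 3 and ibudilast 5, the libraries with the highest meningeal fibroblast markers, and the other 3 ibudilast libraries were within or below the untreated range. The log2 fold changes were 0.92 ± 0.57 for Acta2, 1.49 ± 0.56 for Myh11 and 0.57 ± 0.48 for Tagln (SE, n = 5 each; edgeR adjusted p = 0.221, 0.0546 and 0.365). DESeq2 called Myh11 higher (adjusted p = 0.0138), as did edgeR without ibudilast 1, ibudilast 2 or ibudilast 4, with log2 fold changes of 1.68, 1.71 and 1.72. Myh11 did not pass without ibudilast 3 (1.03, edgeR adjusted p = 0.125) or ibudilast 5 (1.16, edgeR adjusted p = 0.133), and without both its log2 fold change was -0.032 (edgeR adjusted p = 0.916).

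**Figure D4:**
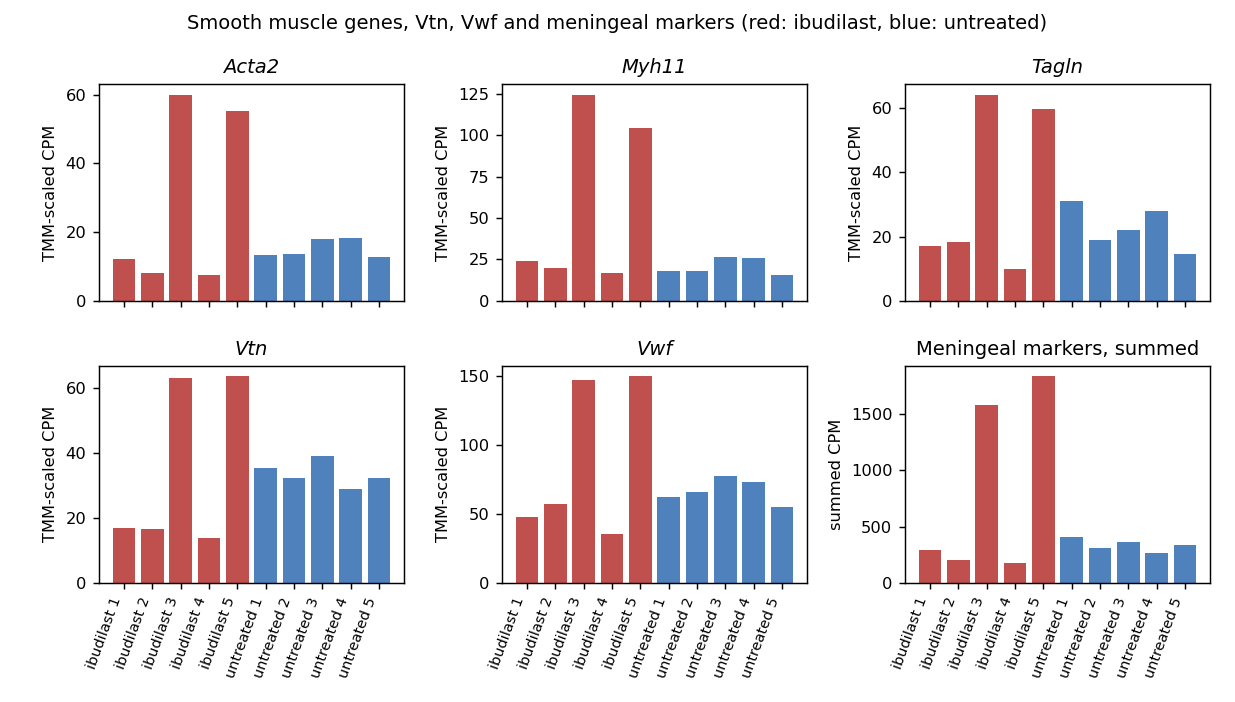
TMM-scaled CPM of Acta2, Myh11, Tagln, Vtn and Vwf, and the summed CPM of 17 meningeal fibroblast markers, in each ibudilast library (red) and untreated library (blue). All 6 panels have their 2 tallest bars at ibudilast 3 and ibudilast 5.

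The same pair of libraries ranked high for many of the 33 genes. Ibudilast 3 and ibudilast 5 were the highest 2 of all 10 libraries for 10 genes, namely Cdh5, Vwf, Kdr, Pdgfrb, Vtn, Anpep, Notch3, Acta2, Myh11 and Tagln, and for 0 of the 14 that fell. They were the highest 2 of the ibudilast group for 23 of the 33 genes, 9 of them among the 14. How common these orders are among all tested genes was not counted, so they cannot be called particular to vascular genes. The mean z-score of the contractile genes was 1.81 in ibudilast 3 and 1.65 in ibudilast 5, and between -1.10 and 0.075 in the other 8 libraries. That of the adhesion and surface genes was -0.86, -0.98, -0.069, -1.24 and 0.33 in ibudilast 1 to 5, against 0.26, 0.94, 1.25, 0.35 and 0.014 in untreated 1 to 5. The untreated rats thus also differed among themselves, with untreated 3 highest and untreated 5 lowest.

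Leaving out ibudilast 3 and ibudilast 5, a choice made after the data were seen, left 3 ibudilast libraries against 5. In that fit 23 of the 33 genes fell and none rose, and the 14 genes were all among the 23. All tested genes called in that fit were 33.9%, with 15.3% lower. The 9 added genes were Cdh5, Icam2, Vwf, Kdr, Tie1, Abcb1a, Vtn, Anpep and Acta2. Vtn had a log2 fold change of -1.09 there (edgeR adjusted p = 0.00166), Anpep of -1.22 and Acta2 of -0.71 (edgeR adjusted p = 0.0268). The libraries left out were the highest of their group for 23 of the genes, so that leaving them out lowers the ibudilast mean of those genes by construction. Without untreated 1 as well, 21 fell, with 13 of the 14 among them, and 11.6% of all tested genes were lower. With the meningeal marker score as a covariate 19 fell, including all of the 14, and 18.0% of all tested genes were lower. That score was 1.46 in ibudilast 3 and 1.67 in ibudilast 5, and between -0.89 and -0.14 in the other libraries. It thus largely marks the same pair, and this fit is not separate from leaving the pair out.

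**Figure D5:**
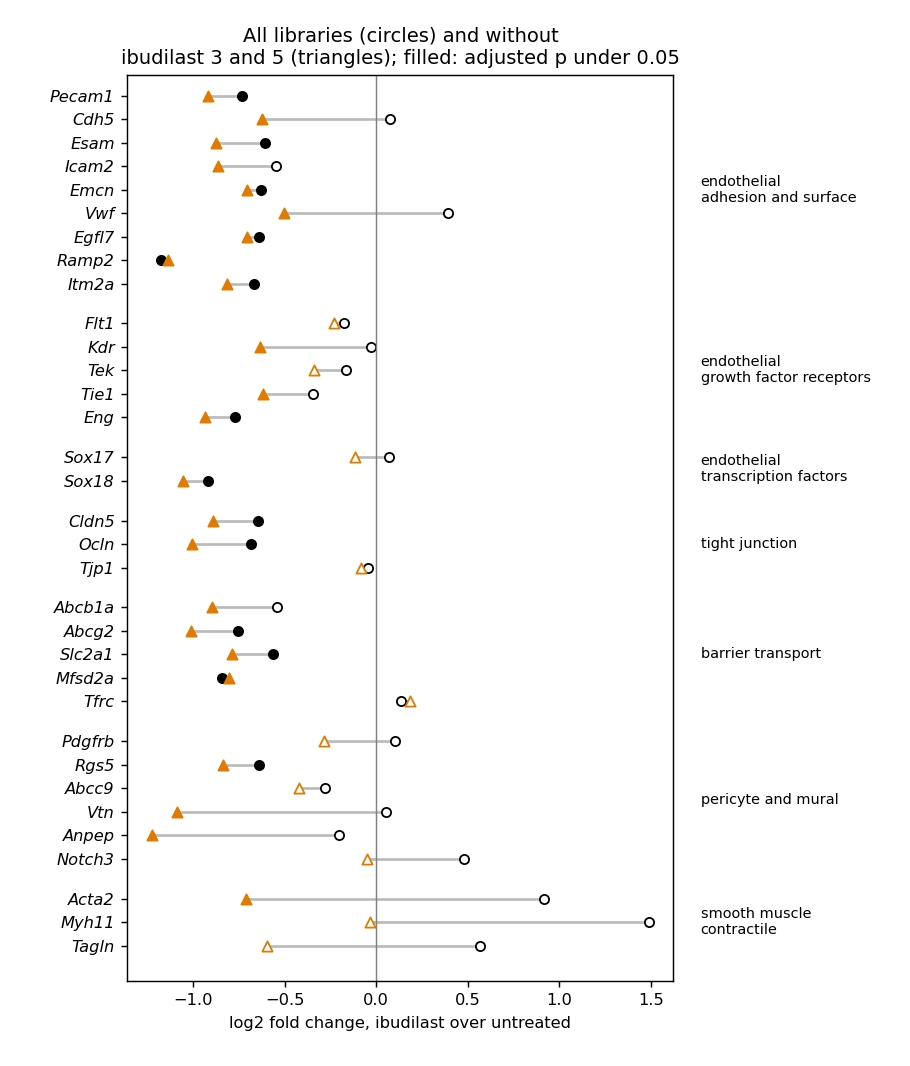
Log2 fold change (ibudilast over untreated, horizontal axis) of each gene with all 10 libraries (circles) and without ibudilast 3 and ibudilast 5 (triangles), filled where the edgeR adjusted p is under 0.05. The contractile genes, Vtn, Anpep, Vwf and Cdh5 move furthest to the left, and Ramp2 and Mfsd2a move little.

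Between 8 and 15 of the 33 genes fell when 1 library was left out, with 8 without ibudilast 2 or untreated 3 and 9 without ibudilast 4 or untreated 2. In both fits with 8, these were 24.2% of the members, against 14.1% of all tested genes called lower. Ramp2, Mfsd2a, Abcg2, Pecam1, Itm2a, Eng, Sox18 and Cldn5 passed whichever of the 10 libraries was left out. The other 6 depended on single libraries. Esam did not pass without ibudilast 1, 2 or 4 or untreated 2 or 3 (log2 fold changes -0.71 to -0.49 over the 10 fits). Emcn did not pass without ibudilast 1, 2, 3 or 4 or untreated 2 or 3 (-0.77 to -0.53), and Egfl7 without ibudilast 2 or 4 or untreated 2 or 3 (-0.71 to -0.47). Ocln (-0.81 to -0.52) and Slc2a1 (-0.74 to -0.49) each did not pass without ibudilast 1, 2 or 4 or untreated 1, 2 or 3. Rgs5 did not pass without ibudilast 2 or untreated 3 or 4 (-0.74 to -0.51). With a neocortical marker score as a covariate, 4 of the 14 passed, namely Ramp2, Mfsd2a, Abcg2 and Emcn, while Notch3 and Myh11 were called higher. The 4 are 12.1% of the 33 genes, below the 15.5% of all tested genes called lower in that fit. The higher share of lower calls among the members was thus not seen there. The score was 0.24, 0.83, -0.77, 0.79 and 0.53 in ibudilast 1 to 5, against -0.25, -0.31, -0.49, -0.31 and -0.27 in untreated 1 to 5. Apart from ibudilast 3, every ibudilast library had a higher score than every untreated one, so that fit can hardly separate drug from score. Ramp2 had a log2 fold change of -1.15 and Mfsd2a of -1.03 with that score. The 10 that did not pass kept negative log2 fold changes, of -0.71 for Sox18, -0.59 for Itm2a, -0.57 for Pecam1, -0.56 for Slc2a1, -0.53 for Egfl7, -0.51 for Rgs5, -0.50 for Eng, -0.44 for Ocln, -0.44 for Cldn5 and -0.36 for Esam (edgeR adjusted p between 0.0611 and 0.243).

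The genes also differed in genomic span. The median decile of span among all tested genes was 5 for the 14 genes that fell and 7 for the 19 that did not pass. Of the 14 genes that fell, 4 were in the 2 deciles of shortest span and 2 in the 2 deciles of longest span, against 3 and 7 of the 19 that did not pass. With a trend of fold change over span removed from all genes, 12 genes fell, and 15.5% of all tested genes were lower. Cldn5, Sox18, Itm2a, Esam and Egfl7, all in the 4 deciles of shortest span, did not pass in that fit, and Flt1, Tjp1 and Abcb1a, all in the decile of longest span, fell. Cldn5 had a log2 fold change of -0.27 there (edgeR adjusted p = 0.257) and Sox18 of -0.57 (edgeR adjusted p = 0.0696). Ramp2 remained called at -0.83 and Mfsd2a at -0.76.

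Other barrier genes moved in both directions. Of 18 further transporters 4 fell and 5 rose, against 18.5% lower and 20.0% higher among all tested genes. Slco1c1, which carries thyroid hormone across the barrier, ran from 49.1 to 59.0 CPM in ibudilast and 84.7 to 141 CPM in untreated libraries, without overlap. Slc3a2, the heavy chain of the amino acid exchanger of the barrier, averaged 166 ± 11.4 CPM in ibudilast and 245 ± 17.9 CPM in untreated libraries (SD, n = 5 each). The multidrug pump gene Abcc1 was higher, at 48.7 ± 9.59 CPM in ibudilast and 25.1 ± 2.24 CPM in untreated libraries (SD, n = 5 each; edgeR adjusted p = 0.00105), as was the insulin receptor gene Insr (log2 fold change 1.12). Both are also made by cells other than endothelium. Of 14 other junction genes 1 fell, the junctional adhesion molecule gene F11r, at 8.85 ± 0.898 CPM in ibudilast and 13.9 ± 1.95 CPM in untreated libraries (SD, n = 5 each). The 3 that rose were the catenin gene Ctnnd1, Cldn12 and Mllt4, with log2 fold changes of 0.46, 0.52 and 0.32. Without ibudilast 3 and ibudilast 5 Mllt4, the afadin gene, did not pass (log2 fold change 0.29).

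Signals that act on vessels were mixed as well. The counts in this paragraph stand beside 18.5% lower and 20.0% higher among all tested genes. Of 14 tested genes of VEGF, angiopoietin and apelin signalling 2 fell and 1 rose. Vegfb, a ligand of the receptor encoded by Flt1, ran from 62.8 to 93.7 CPM in ibudilast and 97.0 to 149.8 CPM in untreated libraries, without overlap (log2 fold change -0.70, edgeR adjusted p = 0.00416). Nrp1, a co-receptor for VEGF and semaphorins, fell by 0.91 on the log2 scale, and Hif1a, which encodes an oxygen-regulated transcription factor, rose by 0.45. In Wnt signalling of the barrier 3 of 12 fell and 1 rose. Tspan12 and Ndp, which encode a co-activator and the ligand norrin of the receptor Fzd4, were lower in every ibudilast library, at 39.6 to 45.8 CPM in ibudilast and 63.2 to 77.0 CPM in untreated libraries for Tspan12 and 15.4 to 22.1 CPM in ibudilast and 25.2 to 34.0 CPM in untreated libraries for Ndp. Fzd6 had a log2 fold change of -0.63, and the co-receptor gene Lrp6 was higher by 0.92. In Notch signalling 3 of 11 fell and 2 rose. The target genes Hes1 and Hey1 and the ligand gene Dll1 had log2 fold changes of -1.19, -0.61 and -0.69, and Rbpj, the DNA-binding partner of Notch, had 0.87. In TGF-beta and BMP signalling 1 of 18 fell, Tgfb3 (-1.01), and 2 rose, Bmpr2 (0.80) and Smad4 (0.46). Of the genes named in this paragraph, those that did not pass with some single library left out were Nrp1 (without ibudilast 4 at -0.83 or untreated 5 at -0.77), Hif1a (untreated 1, 2 or 3, 0.34 to 0.55 over the 10 fits), Smad4 (ibudilast 4, untreated 1 or 3, 0.39 to 0.56), Tgfb3 (ibudilast 2, 3 or 4, untreated 1, 3 or 5, -1.20 to -0.82), Hey1 (ibudilast 2, 4 or 5, untreated 3, 4 or 5, -0.79 to -0.51), Dll1 (all but ibudilast 1, ibudilast 3 and untreated 1, -0.85 to -0.56) and Fzd6 (all but ibudilast 3 and untreated 2, -0.74 to -0.51).

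Further vessel genes included falls and rises, as did all tested genes, with 18.5% lower and 20.0% higher. Of 26 tested endothelial transcription factor and surface genes 6 fell and 4 rose. Igfbp7, a secreted protein of endothelium, ran from 59.2 to 77.6 CPM in ibudilast and 99.7 to 156 CPM in untreated libraries, and Foxq1, a forkhead gene of brain endothelium, from 5.21 to 5.86 CPM in ibudilast and 8.19 to 16.4 CPM in untreated libraries. The phosphatase gene Ptprm was higher by 1.31 on the log2 scale. Cd34, a surface sialomucin gene used as an endothelial marker, had 19.5, 64.7, 14.5, 62.3 and 45.3 CPM in ibudilast 1 to 5, against 8.54, 9.06, 15.7, 11.9 and 6.90 CPM in untreated 1 to 5. Ibudilast 2 and ibudilast 4 were highest, and ibudilast 3 lay within the untreated range. With the neocortical score as a covariate Cd34 did not pass (log2 fold change 0.92). Of 23 tested pericyte and smooth muscle genes 1 fell, Higd1b, a pericyte marker in mouse, with 1.42 to 2.14 CPM in ibudilast and 2.95 to 5.47 CPM in untreated libraries. The 2 that rose, Gucy1a3 and Gucy1b3, encode the subunits of the nitric oxide receptor, which neurons make too, and had log2 fold changes of 2.37 and 1.02.

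In the vascular basement membrane 4 of 15 genes fell and 1 rose. For this and the next lists, the shares among all tested genes were 18.5% lower and 20.0% higher. The collagen gene Col4a1 had 39.2, 33.3, 41.0, 31.1 and 48.5 CPM in ibudilast 1 to 5, against 69.4, 73.8, 61.5, 71.8 and 51.4 CPM in untreated 1 to 5, without overlap (log2 fold change -0.76, edgeR adjusted p = 0.00254). Sparcl1, which astrocytes make in quantity, and the laminin receptor gene Itga6 had log2 fold changes of -0.50 and -0.42. Nid2, which encodes a nidogen, rose by 1.15 and was highest in ibudilast 3 and ibudilast 5, at 20.8 and 24.2 CPM. Without that pair it did not pass, at a log2 fold change of 0.46. Of 11 tested endothelial activation genes 4 fell, 0 rose and 7 did not pass. Log2 fold changes in this list ran from -0.95 to 0.83, so the genes named next do not stand for the whole list. Vcam1, an adhesion molecule that inflamed endothelium displays to leukocytes, had 35.3, 27.3, 28.8, 29.3 and 40.9 CPM in ibudilast 1 to 5, against 51.7, 64.4, 56.5, 46.7 and 56.0 CPM in untreated 1 to 5, without overlap (edgeR adjusted p = 0.00179). The chemokine gene Cxcl12, the lipase inhibitor gene Angptl4 and the plasminogen activator gene Plat had log2 fold changes of -0.95, -0.73 and -0.76. Of 8 astrocyte endfoot genes 4 fell and 2 rose. The gap junction gene Gja1, Mlc1 and Gfap had log2 fold changes of -0.87, -0.65 and -1.24, while the potassium channel gene Kcnj10 averaged 31.8 ± 4.36 CPM in ibudilast and 19.0 ± 2.32 CPM in untreated libraries (SD, n = 5 each).

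Apart from Abcb1b, 41 genes were named from these further lists. Of these, 10 did not pass with the neocortical marker score, which largely separated the groups, as a covariate. Their log2 fold changes in that fit all kept their direction, in Angptl4 (-0.53), Plat (-0.49), Gfap (-1.15), Hey1 (-0.38), Dll1 (-0.50), Fzd6 (-0.36), Tgfb3 (-0.91), Bmpr2 (0.56), Mllt4 (0.28) and Cd34 (0.92). With the span trend removed, Bmpr2 (0.54), Mllt4 (0.041), Hif1a (0.32), Hey1 (-0.30) and Dll1 (-0.52) did not pass.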

How the data were processed

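The expected counts are estimated counts per gene made by the authors. The submitters' processing notes name bcl2fastq 2.17, Bowtie2 2.1.0, RSEM 1.2.15, edgeR and rn6. Libraries were strand-specific mRNA libraries, per the labels' protocols. Of the counting, the annotation, the filters and the strand setting were not given in the sources used here. Overlapping genes and close relatives such as Abcb1a and Abcb1b are uncertain. A further deposited table holds a normalised signal (CPM scaled by TMM), and values recomputed from rounded counts matched 99.9% of it within 0.1%.

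Counts were rounded (10.6% to 11.3% per library were not whole) and tested with edgeR 4.0.16 in R 4.3.3 (TMM factors, filterByExpr, quasi-likelihood test, Benjamini-Hochberg adjustment over 11682 genes), on all 10 libraries with no covariate. The test was checked on simulated counts in which few genes changed and no library carried markers of other tissue. That check does not cover those features of these data. CPM and z-scores (log2 of CPM plus 0.5) use the same factors. Alternatives used other scaling, filters, DESeq2 1.42.0, limma 3.58.1 on deposited CPM, covariates, a span trend (GRCr8 RefSeq spans for 98.1% of tested genes) and left-out libraries.

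Members and lists were chosen with earlier results of these data known. Named genes were called members, the 2 of smallest p in groups with fewer than 2 calls, 6 fixed genes, and up to 4 called genes per further list. The other members, Abcb1b, the genes whose libraries the text singles out and the markers were named after their values were seen. The labels tie each library to its own animal.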

Additional observations from a re-analysis of the deposited data

Results flagged for a closer look

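In 5 of 148 groups of 5 libraries examined (each of the 33 vascular genes and 41 further named genes, without Abcb1b, in each group), 1 library stood apart from the other 4, where chance flags about 1 in 20 groups. Slc2a1 reached 211.7 CPM in ibudilast 5, while ibudilast 1 to 4 had 111 to 140 CPM. Itm2a was at 99.1 CPM in untreated 3, against 55.2 to 65.5 CPM in the other untreated libraries. Abcc9 was at 24.8 CPM in untreated 4, against 13.0 to 15.8 CPM in the others. Abcc1 was low in untreated 3, at 21.2 CPM against 25.0 to 26.6 CPM. Gucy1a3 was at 14.1 CPM in untreated 5, against 5.88 to 7.47 CPM in the others of its group.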

How the results depend on the processing

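The count of 14 genes that fell was 14 to 16 with other size factors, other filters on low counts, DESeq2, limma-trend and the range of animal tags as a covariate, and 8 to 15 with 1 library left out, where the median member log2 fold change was -0.61 to -0.27 and 0 or 1 gene rose. The share of members called lower was 42.4% to 48.5% with other factors, filters, methods and the tag range, against 13.9% to 21.6% of all tested genes. With 1 library left out it was 24.2% to 45.5%, against 13.7% to 19.4% of all tested genes. DESeq2 called 1 gene higher. With the neocortical score 4 fell and 2 rose, and Kdr (0.38) and Anpep (0.13) became positive. Without ibudilast 3 and ibudilast 5, 23 fell and the member median was -0.71, with Cdh5 at -0.62, Vwf at -0.50, Sox17 at -0.12, Pdgfrb at -0.29, Vtn at -1.09, Notch3 at -0.048, Acta2 at -0.71, Myh11 at -0.032 and Tagln at -0.60. Without untreated 1 as well, the median was -0.76, with Cdh5 at -0.72, Vwf at -0.53, Sox17 at -0.083, Pdgfrb at -0.32, Vtn at -1.08, Notch3 at -0.15, Acta2 at -0.76, Myh11 at -0.088 and Tagln at -0.47. With the meningeal score the median was -0.70, with Cdh5 at -0.38, Vwf at -0.19, Sox17 at -0.021, Pdgfrb at -0.14, Vtn at -0.71, Acta2 at -0.26 and Tagln at -0.23. Cdh5 was also negative with limma-trend (-0.067) and the span trend removed (-0.0063), and Vtn with limma-trend (-0.28). With 1 library left out, Cdh5 ran from -0.23 to 0.23, Kdr from -0.26 to 0.11, Sox17 from -0.036 to 0.18, Tjp1 from -0.12 to 0.017, Pdgfrb from -0.046 to 0.23 and Vtn from -0.28 to 0.26. With upper quartile factors, 2521 genes were lower and 2080 higher, against 2160 and 2337 with TMM.

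Same-numbered libraries did not deviate together (correlations -0.13 to 0.021, none highest with its own number). No pairing by number was thus seen, which does not show that same-numbered libraries had nothing else in common. With the replicate block 10 members fell, or 30.3%, against 14.2% of all tested genes called lower. Emcn (-0.64), Egfl7 (-0.60), Ocln (-0.68) and Slc2a1 (-0.59) did not pass, Cdh5 stood at -0.060 and Vtn at -0.27, and 3535 of all genes were called, against 4497 without it. The cause of these shifts was not tested. Low genes such as Anpep, Icam2 and Higd1b rest on few counts, and 5 animals a group set the error.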
